A study of Mus musculus with 6 samples.

Results

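The aminoacyl-tRNA synthetase genes and the genes known as targets of the transcription factor ATF4 were followed in PA6 cells, a murine stromal line on which ES cells are grown in co-culture. The genes were taken from a list of 38 names, 20 cytosolic synthetases and 18 other genes linked to ATF4, and every probe that carries one of these names on the array was used. All 38 were found among the 30854 names on the array, with 73 of its 45281 probes. Pure PA6 cultures had spent 3 h without added growth factor (-GFs medium) or under FGF2 (20 ng/ml) or BMP4 (10 ng/ml in the sample labels), with 2 replicates per group and 1 Illumina MouseWG-6 v2.0 array per replicate. The study's methods give a lower BMP4 dose for co-cultures, so the dose on the pure cultures is not certain. No group carries a genetic change, and the cells are of 1 line in pure culture, so that the results hold for stromal cells without ES cells. The authors deposited the mean bead intensity of each probe, whose median was 168.1 and 156.1 (-GFs), 161.5 and 162.6 (FGF2) and 153.4 and 167.8 (BMP4). Intensities were brought to a common distribution by a cubic spline and converted to log2, so that all levels below are log2 intensities and a difference of 1 is a doubling. Each group has 2 arrays, and this small number limits how precise any value is.

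Aminoacyl-tRNA synthetases load each amino acid onto its tRNA before translation. Several of them are held together in the cytosol in the multisynthetase complex, and the others act outside it. ATF4 is translated more when kinases that sense amino acid shortage, unfolded proteins or other stress phosphorylate the translation initiation factor eIF2, and it then switches on genes for the synthesis, uptake and charging of amino acids, together with genes that set how a cell copes with stress. The arrays measured mRNA, and neither ATF4 protein nor the phosphorylation of eIF2 was measured here.

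The cells carried the marks of a stromal line. All 8 stromal markers (COL1A1, COL1A2, COL3A1, VIM, PDGFRA, PDGFRB, CXCL12 and THY1) were detected on all 6 arrays. With FGF2 none of them passed without the block, although only 1 of the 8 log2 fold changes was positive (median -0.286), and with the replicate block COL1A1, PDGFRA and CXCL12 fell and PDGFRB rose. Their summed intensities were 96360 and 88850 (-GFs), 76870 and 72160 (FGF2) and 99540 and 83070 (BMP4). The endothelial markers PECAM1 and CDH5, the ES cell markers NANOG, SOX2 and ZFP42, the neural marker TUBB3 and the macrophage markers PTPRC, CD68 and EMR1 were detected on no array. The endothelial markers KDR and TEK, the macrophage markers CSF1R and CD14 and the ES cell marker POU5F1 were detected on some or all arrays, and none of them passed the test with FGF2. The neural marker MAP2, named MTAP2 on the array, was detected on 1 array and not tested. Of 7 adipocyte markers, 3 were tested (CFD, LPL and PPARG), while ADIPOQ and CIDEC were detected on 3 arrays, PLIN1 on 2 and FABP4 on none. The median level of the 3 followed the replicate number, with 7.79 and 9.45 in replicates 1 and 2 in -GFs medium, 7.61 and 9.28 with FGF2 and 7.79 and 9.71 with BMP4. Their summed intensities were 2683 and 3629 (-GFs), 2575 and 4180 (FGF2) and 2880 and 4699 (BMP4). The part of these differences between groups and between replicates in the results below was not tested. In such bulk samples, fewer cells of a type and less RNA per cell cannot be told apart.

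A probe was retained when its detection p-value was under 0.05 for the 2 arrays of some group, and a gene was represented by its retained probe with the largest mean. This left 11872 genes, among them 35 of the 38 members (19 synthetases and 16 others). The cysteinyl-tRNA synthetase CARS, the last enzyme of serine synthesis PSPH and the stress-induced transcription factor ATF3 had no probe detected on any array. The phenylalanyl-tRNA synthetase subunit FARSA was detected on both FGF2 arrays and on none of the others, and the tyrosyl-tRNA synthetase YARS on both FGF2 and both BMP4 arrays and on neither -GFs array. These genes entered the test through the groups in which they were bright, and their change is known as a bound, at least 1.14-fold higher with FGF2 for FARSA, and for YARS at least 1.44-fold higher with FGF2 and at least 1.12-fold higher with BMP4. YARS stood at 7.83 and 8.40 on the FGF2 arrays, so that its bound rests mostly on replicate 2. Such a bound sets the average of the group with more signal against the weakest signal of any detected probe on each array of the dimmer group, or against the signal of the dim probe itself where that was higher.

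FGF2 raised the mRNA of ATF4 and of CHAC1, lowered that of DDIT4, DDIT3 and NUPR1, and raised that of 2 synthetases, FARSB and NARS, within 3 h. At an adjusted p under 0.1 with any fold, 4 of the 35 tested members rose (11.4%, against 6.03% of all genes tested) and 3 fell (8.57%, against 5.78% of all genes tested). At the threshold of the study's methods, which also asks for an absolute log2 fold change over 1, ATF4 and CHAC1 rose (2 of 35, against 2.28% of all genes tested) and DDIT4 fell (1 of 35, against 1.25%). The arrays of 1 replicate number deviated from their group means together, and each replicate held 1 well of every treatment. With the replicate number as a block, 16 members rose (45.7%, against 18.1% of all genes tested) and 5 fell (14.3%, against 19.6%). YARS and FARSA are 2 of these 16 and lay at background in -GFs medium. With neqc and the block together the members called were 8 up, YARS and FARSA among them (15.6% of all genes up), and 4 down (16.6% of all genes). The balance of rises and falls depended on the scaling among the members and among all genes, with 1 member up and 2 down after neqc (554 and 559 of all genes) and 2 up and 4 down after median scaling (502 and 910 of all genes), against 716 and 686 of all genes with the cubic spline. Both FGF2 arrays lay above both -GFs arrays for 15 of the 35 members (42.9%, against 24.6% of all genes tested) and below them for 5 (14.3%, against 29.1%). YARS and FARSA are again among the 15.

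**Figure D1:**
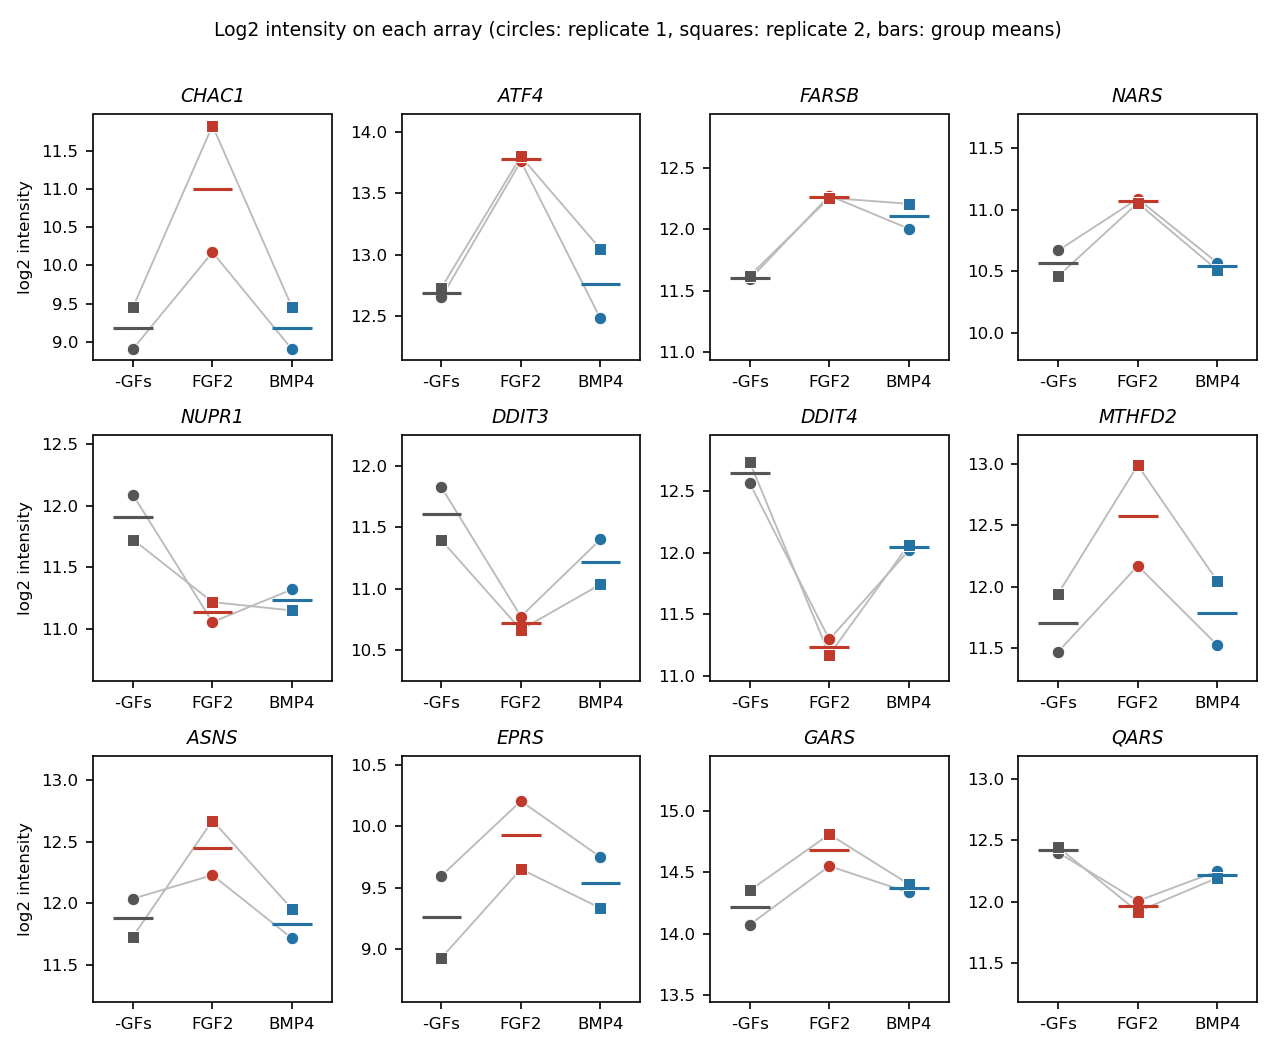
Log2 intensity (vertical axis, each panel with its own range) of the 7 members that passed the test with FGF2 and of 5 further members chosen after their values were seen, in -GFs medium, with FGF2 and with BMP4. Circles are replicate 1, squares replicate 2, bars group means, and grey lines join arrays of 1 replicate. Both FGF2 arrays lie above both -GFs arrays for CHAC1, ATF4, FARSB and NARS and below them for NUPR1, DDIT3 and DDIT4.

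ATF4, the transcription factor that gives the gene group its name, had levels of 12.66 and 12.73 (-GFs), 13.76 and 13.80 (FGF2) and 12.48 and 13.05 (BMP4). Both FGF2 arrays stood well above the other 4, and the BMP4 arrays lay on either side of the -GFs arrays. The rise with FGF2 was 2.13-fold (log2 fold change 1.09, standard error 0.21, adjusted p = 0.0322), and within replicates 1 and 2 it was 1.11 and 1.07. A second probe of ATF4 gave a log2 fold change of 1.14 with a larger standard error (0.37), and did not pass (adjusted p = 0.127 over all retained probes). With median scaling ATF4 was called but under the fold threshold (log2 fold change 0.95, adjusted p = 0.0713). Leaving out 1 array moved the log2 fold change of ATF4 no further than 1.05 to 1.13, while its adjusted p became 0.11 without -GFs replicate 1, 0.101 without -GFs replicate 2, and 0.178 and 0.221 when FGF2 replicate 1 or 2 was left out.

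CHAC1, a glutathione-degrading enzyme and a well-known ATF4 target, had the largest mean change of the 35 members with all arrays in, a rank that it does not keep without FGF2 replicate 2. Its levels were 8.91 and 9.45 (-GFs), 10.17 and 11.83 (FGF2) and 8.90 and 9.45 (BMP4). The FGF2 arrays were the highest, although they differed from each other by more than the arrays of either other group, and the BMP4 arrays stood at the level of the -GFs arrays. The rise was 3.53-fold with FGF2 (log2 fold change 1.82, standard error 0.51, adjusted p = 0.092; 3.26e-06 with the replicate block). It was 1.26 within replicate 1 and 2.38 within replicate 2. The size rests in part on FGF2 replicate 2, without which the log2 fold change was 0.99 (adjusted p = 0.303). With FGF2 replicate 1 left out it was 2.65 (adjusted p = 0.067). CHAC1 was also not called without -GFs replicate 1 (1.55, adjusted p = 0.225), without -GFs replicate 2 (2.09, adjusted p = 0.158) or without either BMP4 array (1.82, adjusted p = 0.104 each time), nor with neqc (2.09, adjusted p = 0.114) or with no detection filter (adjusted p = 0.106).

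DDIT4, an inhibitor of the growth-promoting kinase complex mTORC1, fell with FGF2. Its levels were 12.56 and 12.74 (-GFs), 11.29 and 11.17 (FGF2) and 12.02 and 12.06 (BMP4). The FGF2 arrays were the lowest, the BMP4 arrays came next, and no group overlapped another. With FGF2 the level was 0.374 times that in -GFs medium (log2 fold change -1.42, standard error 0.15, adjusted p = 0.00777). It was the member with the lowest adjusted p, and it passed with every array left out in turn (adjusted p up to 0.099) and with every other normalization and filter tried. SESN2, another mTORC1 inhibitor of the ATF4 programme, had a difference of 0.10 in log2 (standard error 0.19, adjusted p = 0.799).

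DDIT3, the transcription factor CHOP, which ATF4 switches on during severe stress, fell while ATF4 rose. Its levels were 11.83 and 11.40 (-GFs), 10.78 and 10.67 (FGF2) and 11.40 and 11.04 (BMP4). Both FGF2 arrays were below the other 4, and the BMP4 arrays overlapped with the -GFs arrays. The log2 fold change with FGF2 was -0.89 (standard error 0.21, adjusted p = 0.0559), and the second probe gave -0.98 (standard error 0.27, adjusted p = 0.09 over all retained probes). NUPR1, a small chromatin-associated stress protein, had levels of 12.09 and 11.73 (-GFs), 11.06 and 11.22 (FGF2) and 11.32 and 11.15 (BMP4). The -GFs arrays were the highest for NUPR1, and the arrays of both factors lay together below them. Its log2 fold change with FGF2 was -0.77 (standard error 0.18, adjusted p = 0.0562). DDIT3 was no longer called without -GFs replicate 1 (-0.68, adjusted p = 0.167) and with FGF2 replicate 1 (-0.94, adjusted p = 0.216) or replicate 2 (-0.84, adjusted p = 0.293) left out. The call of NUPR1 was lost without the same 3 arrays (-0.59, adjusted p = 0.17; -0.69, adjusted p = 0.267; -0.85, adjusted p = 0.243) and with neqc (-0.80, adjusted p = 0.108).

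Among the 5 tested transcription factors, then, ATF4 rose and DDIT3 and NUPR1 fell. ATF5, a relative of ATF4, had a difference of -0.39 in log2 (standard error 0.15, adjusted p = 0.182) and fell with the replicate block (adjusted p = 0.0446), but not with neqc and the block (adjusted p = 0.135). CEBPG, a dimerization partner of ATF4, stood at -0.06 (standard error 0.17, adjusted p = 0.861), and within replicates 1 and 2 at 0.19 and -0.32. TRIB3, a pseudokinase induced by ATF4 that dampens its activity, had a difference of 0.37 in log2 (standard error 0.25, adjusted p = 0.435) and rose with the replicate block (adjusted p = 0.0694), but not with neqc and the block (adjusted p = 0.159). Leaving out 1 array moved TRIB3 between 0.02 and 0.72. Of the 4 stress effectors, CHAC1 rose, DDIT4 fell, and TRIB3 and SESN2 passed no test without the block.

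The synthetases detected in -GFs medium had smaller log2 fold changes with FGF2 than ATF4, and most of them were positive. The log2 fold changes of all 19 tested synthetases with FGF2 had a median of 0.364, against -0.021 over all genes tested. Of the 19, 15 were positive, against 5642 of 11872 genes, and YARS and FARSA, not detected in -GFs medium, are among the 15. Among the synthetases detected on all 6 arrays 13 of 17 were positive. The median was 0.299 within replicate 1 and 0.351 within replicate 2. It stayed at 0.364 with the 2 synthetases known as a bound set at their bound, and also among the synthetases detected on all 6 arrays. This median is the value of DARS, and FARSA lay below it and YARS above it, at their fitted values and at their bounds. Neither check could therefore show whether these 2 genes matter for the median. FARSB and NARS rose (2 of 19, against 6.03% of all genes tested) and none fell (against 5.78%). No synthetase rose with neqc (against 4.67% of all genes up) or with median scaling (against 4.23%). At these shares a list of 19 can hold no rise without differing from all genes. QARS fell with median scaling (1 of 19, against 7.67% of all genes down) and with the mean of the probes (1 of 19, against 5.85%). With the replicate block 11 rose (against 18.1% of all genes) and 1 fell (against 19.6%), and YARS and FARSA, at background in -GFs medium, are among the 11. With neqc and the block only EPRS, FARSB, NARS, YARS and FARSA rose (against 15.6% of all genes), and QARS fell (against 16.6%). With median scaling, which moved the median of all genes to -0.097, the synthetase median was 0.29 and 14 of the 19 were positive.

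**Figure D2:**
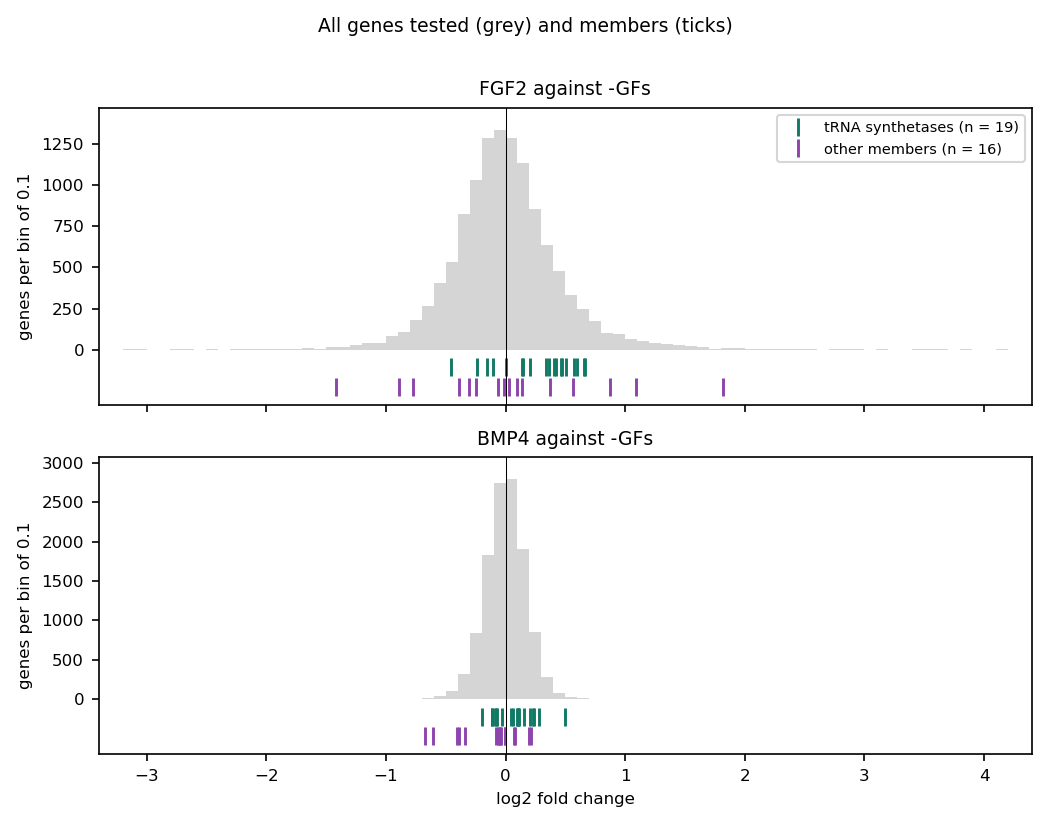
Number of genes (vertical axis) per bin of 0.1 of the log2 fold change against -GFs (horizontal axis), for FGF2 (top) and BMP4 (bottom), over all 11872 genes tested, with the 19 synthetases and the 16 other members as ticks. With FGF2, 15 of the 19 synthetases lie above 0, while the other members spread from -1.42 to 1.82, and the whole distribution is narrower with BMP4.

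FARSB, the beta subunit of phenylalanyl-tRNA synthetase, had levels of 11.59 and 11.62 (-GFs), 12.27 and 12.25 (FGF2) and 12.003 and 12.21 (BMP4). The -GFs arrays were the lowest, and the 2 arrays lay close together in -GFs medium and with FGF2. The rise with FGF2 was 1.58-fold (log2 fold change 0.66, standard error 0.15, adjusted p = 0.0514), and the second probe gave 0.46 (standard error 0.21, adjusted p = 0.252 over all retained probes). It was not called with neqc (0.68, adjusted p = 0.11), with median scaling (0.57, adjusted p = 0.105), or without any 1 of the -GFs and FGF2 arrays (0.64 to 0.67, adjusted p = 0.141 without -GFs replicate 1, 0.145 without -GFs replicate 2, and 0.229 and 0.261 when FGF2 replicate 1 or 2 was left out).

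NARS, which charges tRNA with asparagine, had levels of 10.67 and 10.46 (-GFs), 11.09 and 11.05 (FGF2) and 10.57 and 10.51 (BMP4). The FGF2 arrays were the highest, and the BMP4 arrays lay within the range of the -GFs arrays. The rise was 1.42-fold (log2 fold change 0.51, standard error 0.15, adjusted p = 0.0999), just inside the threshold, and with the replicate block the adjusted p was 0.00979. The call was lost without any 1 of the 6 arrays (log2 fold change 0.40 to 0.61, adjusted p 0.138 to 0.346), with neqc (adjusted p = 0.168), with median scaling (adjusted p = 0.203) and with either stricter detection filter (adjusted p = 0.103 when detected on all 6 arrays and 0.101 at a detection p under 0.01).

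None of the 8 tested synthetases of the multisynthetase complex passed the test without the block (against 6.03% of all genes up and 5.78% down). At these shares a list of 8 can hold no call without differing from all genes. Their log2 fold changes had 0.251 as the median and a range from -0.46 to 0.67. With the replicate block, EPRS, RARS, IARS and DARS rose (4 of 8, against 18.1% of all genes tested). With neqc and the block EPRS alone did so (adjusted p = 0.0233, against 15.6% of all genes up), while RARS (0.146), IARS (0.139) and DARS (0.145) were not called. EPRS, which joins glutamyl- and prolyl-tRNA synthetase in 1 chain, had levels of 9.60 and 8.93 (-GFs), 10.21 and 9.65 (FGF2) and 9.75 and 9.34 (BMP4). The arrays of replicate 1 were the brighter in all 3 groups, and within replicates 1 and 2 the difference with FGF2 was 0.61 and 0.72 (log2 fold change 0.67, standard error 0.29, adjusted p = 0.233; 0.00154 with the block). Leaving out 1 array moved EPRS between 0.331 and 0.999, and RARS between 0.275 and 0.875. RARS, for arginine, had a log2 fold change of 0.57 (adjusted p = 0.22; 0.0238 with the block), and its second probe, with 0.56 and a smaller error, passed (standard error 0.15, adjusted p = 0.0838 over all retained probes). IARS, for isoleucine, stood at 0.47 (adjusted p = 0.309; 0.0322 with the block). DARS, for aspartate, stood at 0.36 (adjusted p = 0.579; 0.0552 with the block), and without -GFs replicate 2 at -0.004 (adjusted p = 0.997).

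QARS, which charges tRNA with glutamine and sits in the same complex, went the other way. Its levels were 12.40 and 12.44 (-GFs), 12.01 and 11.92 (FGF2) and 12.25 and 12.20 (BMP4). No group overlapped another, and the FGF2 arrays were the lowest. The log2 fold change with FGF2 was -0.46 (standard error 0.14, adjusted p = 0.11; 0.0173 with the replicate block), and the second probe gave -0.49 (standard error 0.15, adjusted p = 0.112 over all retained probes). With median scaling QARS passed without the block (-0.54, adjusted p = 0.0813). The remaining members of the complex, LARS (0.14), KARS (0.01) and MARS (-0.11), for leucine, lysine and methionine, had log2 fold changes within 1 standard error of 0 with FGF2, and for KARS the sign turned with median scaling (-0.10).

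Of the 11 tested synthetases outside the complex, FARSB and NARS rose (2 of 11, against 6.03% of all genes tested). With the replicate block GARS, WARS and AARS rose as well. YARS and FARSA also passed with the block, which makes 7 of 11 (against 18.1% of all genes tested). The comparison of these 2 genes is with a group in which they were not detected, and only the bounds given for them above hold. The median log2 fold change of the 11 was 0.406. GARS, for glycine, had levels of 14.08 and 14.35 (-GFs), 14.55 and 14.81 (FGF2) and 14.34 and 14.40 (BMP4). Each FGF2 array was above its -GFs array by 0.48 or 0.46 (log2 fold change 0.47, standard error 0.17, adjusted p = 0.165; 0.017 with the block). The log2 fold change was 0.42 for WARS (tryptophan, adjusted p = 0.169; 0.0351 with the block) and 0.41 for AARS (alanine, adjusted p = 0.149; 0.0345 with the block). With neqc and the block none of these 3 was called (adjusted p = 0.1 for GARS, 0.119 for WARS and 0.127 for AARS). HARS (histidine, 0.15), TARS (threonine, 0.20), VARS (valine, -0.16) and SARS (serine, -0.24) did not pass with or without the block. The further probes of WARS gave smaller values (0.34, 0.18 and -0.05), and the second probe of HARS a larger one (0.35). The second probes of SARS (0.03) and VARS (-0.003) lay near 0.

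**Figure D3:**
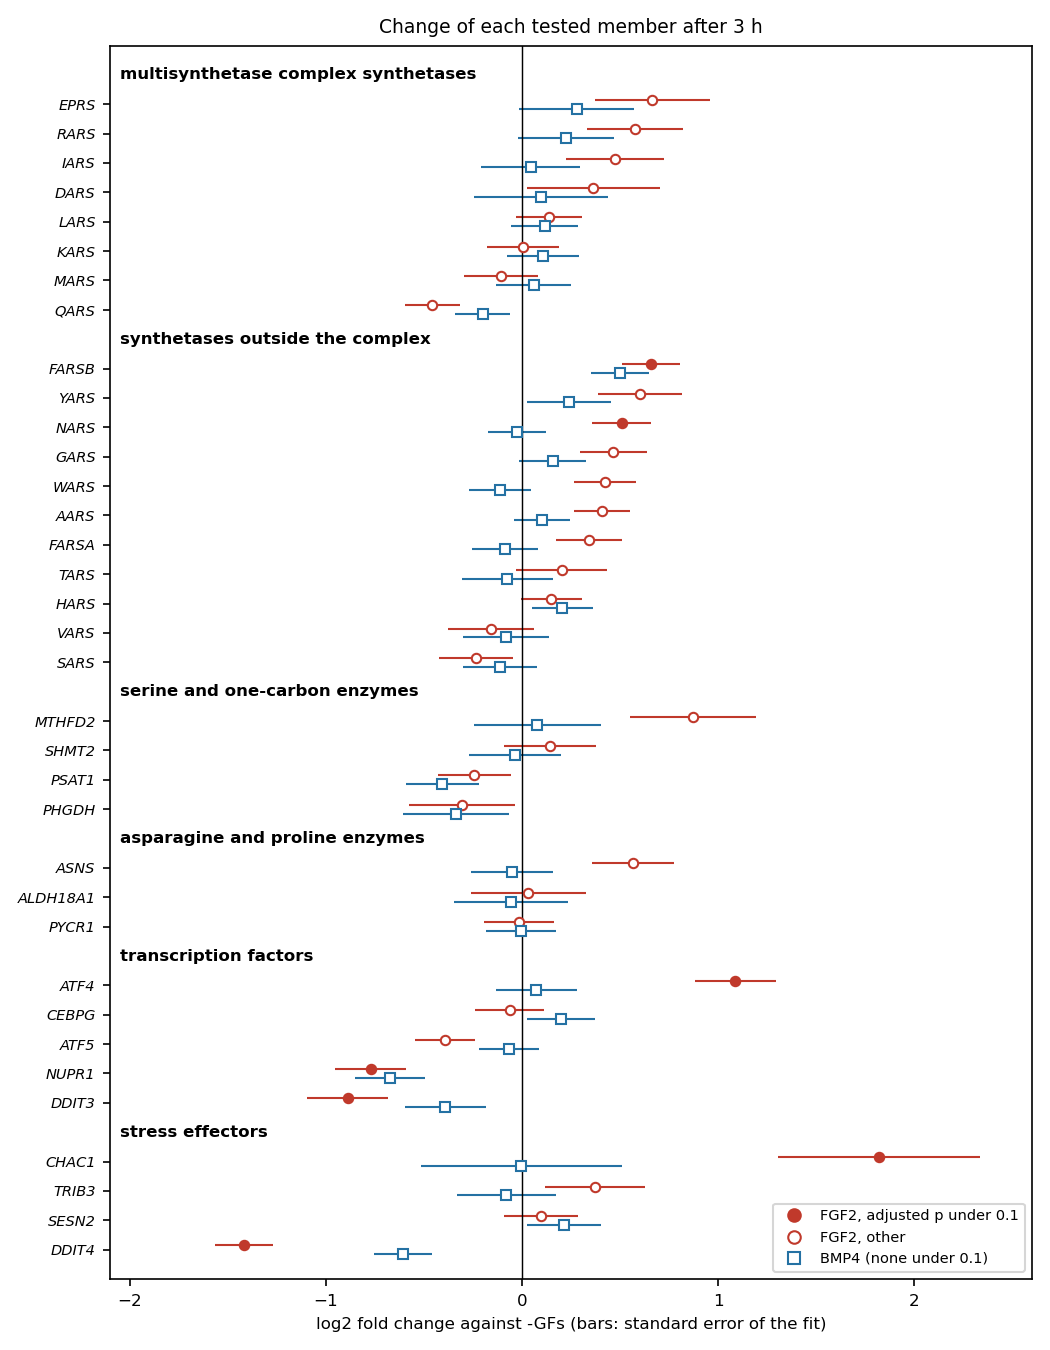
Log2 fold change against -GFs (horizontal axis) with its standard error (bars) for each of the 35 tested members, grouped by role, with FGF2 (red circles, filled at an adjusted p under 0.1) and with BMP4 (blue squares, none under 0.1). CHAC1 and ATF4 are farthest to the right with FGF2 and DDIT4 farthest to the left, and DDIT4 and NUPR1 are farthest to the left with BMP4. YARS and FARSA were not detected in -GFs medium, so that their points are no exact folds.

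None of the tested enzymes of amino acid synthesis passed without the block (against 6.03% of all genes up and 5.78% down), and a move of the group was not tested. At these shares so short a list can hold no call without differing from all genes. With the replicate block 1 of 4 serine and one-carbon enzymes and 1 of 3 asparagine and proline enzymes rose (against 18.1% of all genes). None of them fell (against 19.6%). MTHFD2, a mitochondrial one-carbon enzyme, had levels of 11.47 and 11.95 (-GFs), 12.17 and 12.99 (FGF2) and 11.53 and 12.05 (BMP4). Both FGF2 arrays were above both -GFs arrays, and the arrays of replicate 2 were the brighter in every group. The log2 fold change was 0.87 (standard error 0.32, adjusted p = 0.166), and with the replicate block, which takes out the difference between the replicates, MTHFD2 rose (adjusted p = 0.000185; 0.018 with neqc and the block). Leaving out 1 array moved MTHFD2 between 0.46 and 1.28. Its second probe gave 0.66 (standard error 0.37, adjusted p = 0.342 over all retained probes). The other enzymes of the serine branch passed in neither fit, with log2 fold changes of 0.14 for SHMT2, -0.24 for PSAT1 and -0.31 for PHGDH, the first enzyme of serine synthesis.

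ASNS, which makes asparagine and is a classical ATF4 target, had levels of 12.04 and 11.73 (-GFs), 12.23 and 12.67 (FGF2) and 11.71 and 11.95 (BMP4). The FGF2 arrays were the highest, with a difference of 0.19 within replicate 1 and 0.94 within replicate 2. The log2 fold change was 0.57 (standard error 0.21, adjusted p = 0.167; 0.0143 with the replicate block), and its further probes gave 0.37 and -0.07. The blocked call of ASNS was lost with neqc (adjusted p = 0.109), and leaving out 1 array moved its log2 fold change between 0.345 and 0.789. The proline enzymes ALDH18A1 (0.03) and PYCR1 (-0.01) had log2 fold changes near 0, and with median scaling ALDH18A1 stood at -0.06.

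**Figure D4:**
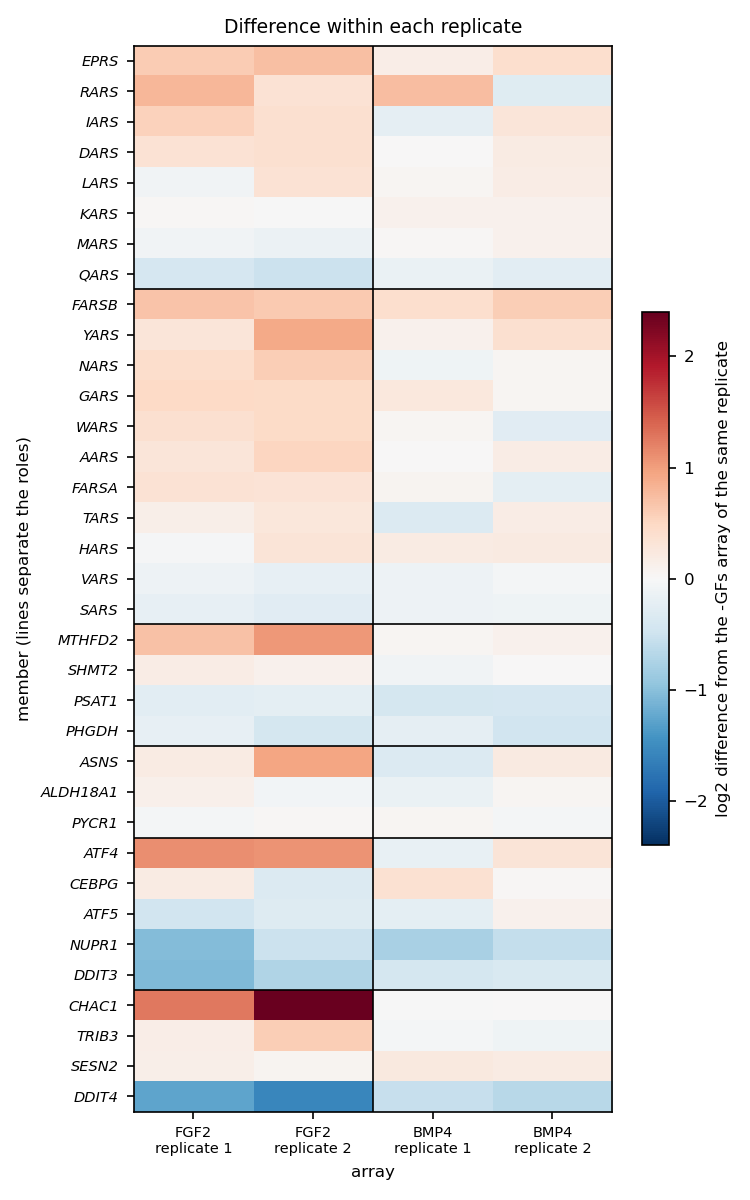
Difference in log2 intensity (colour scale) between the FGF2 or BMP4 array and the -GFs array of the same replicate number, for the 35 tested members (1 line each, grouped by role). ATF4, CHAC1 and MTHFD2 are red in both FGF2 columns (CHAC1 1.26 and 2.38), and DDIT4, DDIT3 and NUPR1 are blue in all 4 columns.

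The promoters of the members were searched for TGATGNAA on both strands, the core of the composite site to which ATF4 binds together with C/EBP proteins. The windows, from RefSeq on GRCm38.p6, run from 250 bases before the start of a gene to 50 bases after it. A window was found for 31 of the 38 members, and 11 of them (35.5%) held the letters, against 1219 of 27025 genes (4.51%) with a window. They were 5 of 13 synthetases and 6 of 18 other members (ASNS, ATF3, CHAC1, NUPR1, PYCR1 and TRIB3). A match is a description of these letters and not a site shown to be bound, and the gene list was assembled from known targets of ATF4. Of the members that passed the test with FGF2, CHAC1 and NUPR1 held the letters, and their 250 bases before the start are given here, 5′ to 3′ on the strand of the gene with the match in capitals, because the 2 genes went in opposite directions with the same letters before their start.
CHAC1 (chr2:119350992-119351241, plus strand): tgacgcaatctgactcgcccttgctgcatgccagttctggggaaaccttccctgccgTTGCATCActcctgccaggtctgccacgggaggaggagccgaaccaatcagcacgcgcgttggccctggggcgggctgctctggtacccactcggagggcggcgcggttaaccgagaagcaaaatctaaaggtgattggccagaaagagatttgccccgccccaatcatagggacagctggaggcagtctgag
NUPR1 (chr7:126625471-126625720, minus strand): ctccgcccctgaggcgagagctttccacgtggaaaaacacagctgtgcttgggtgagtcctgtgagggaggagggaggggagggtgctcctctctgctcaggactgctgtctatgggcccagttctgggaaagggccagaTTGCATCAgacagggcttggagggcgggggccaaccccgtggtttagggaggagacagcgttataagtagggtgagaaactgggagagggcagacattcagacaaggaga

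Counted from the start of the gene, the match begins at base -193 in CHAC1 and at base -110 in NUPR1, and in both it lies on the opposite strand. CHAC1 rose 3.53-fold with FGF2, and NUPR1 fell to 0.586 times its level in -GFs medium. The window of ATF4 itself and those of DDIT3, DDIT4 and FARSB held no such letters, and no window was found for NARS. Of the members that passed and had a window, 1 of 3 that rose and 1 of 3 that fell held them (33.3% each). With the replicate block it was 7 of 13 that rose (53.8%) and 1 of 5 that fell (20%). With neqc and the block it was 2 of 7 that rose (28.6%) and 1 of 4 that fell (25%). The share among the members that rose thus depended on the setting. YARS, at background in -GFs medium, held the letters and counts among those that rose in both of these settings.

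BMP4 moved no member past the test. No member was called at an adjusted p under 0.1 by limma (0 of 35, against 0.00842% of all genes tested, which is 1 gene), none by a t-test with the same adjustment (which called 1 of all genes tested), and by limma 3 members (DDIT4, NUPR1 and FARSB) were under 0.05 in unadjusted p, as were 215 of all genes tested (1.81%). Under the blocked fit the members called were again 0, against 0.168% of all genes up and 0.0505% down. There 6 members (DDIT3, DDIT4, FARSB, NUPR1, PHGDH and PSAT1) were under 0.05 in limma's unadjusted p, as were 834 of all genes tested (7.02%). The synthetases showed a median of 0.098 in log2 fold change under BMP4, against 0.002 over all genes tested. Of the 19, 12 were positive, against 5979 of 11872 genes, and YARS, at background in -GFs medium, is among the 12. Both BMP4 arrays lay above both -GFs arrays for 4 members (11.4%, against 11.2% of all genes tested), with YARS, at background in -GFs medium, among them, and below them for 4 (11.4%, against 12.8%). The FGF2 and BMP4 comparisons share the -GFs arrays.

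The values farthest from 0 with BMP4 were those of NUPR1 (log2 fold change -0.67, standard error 0.18), DDIT4 (-0.61, standard error 0.15) and FARSB (0.50, standard error 0.15), each with an adjusted p of 0.999. With the replicate block the adjusted p was 0.127 for NUPR1, 0.151 for DDIT4 and 0.275 for FARSB. For these 3 genes both BMP4 arrays lay on 1 side of both -GFs arrays. PSAT1 (-0.41), DDIT3 (-0.39) and PHGDH (-0.34) followed. ATF4 stood at 0.07, CHAC1 at 0.00, MTHFD2 at 0.08 and ASNS at -0.05. The remaining synthetases lay between -0.20 (QARS) and 0.28 (EPRS).

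The direct comparison of FGF2 with BMP4, which does not use the -GFs arrays for its difference, called 1 member up, ATF4 (1 of 35, against 4.84% of all genes tested), and 1 down, DDIT4 (1 of 35, against 4.22%). The log2 difference between FGF2 and BMP4 was 1.02 for ATF4 (standard error 0.21, adjusted p = 0.0439) and -0.81 for DDIT4 (standard error 0.15, adjusted p = 0.0333). CHAC1 differed by 1.82 (standard error 0.51, adjusted p = 0.105; 3.64e-06 with the replicate block), NARS by 0.53 (adjusted p = 0.102; 0.00809 with the block) and WARS by 0.53 (adjusted p = 0.115; 0.0108 with the block). With the block, 11 members were higher with FGF2 (31.4%, against 16.3% of all genes tested) and 2 were lower, DDIT3 and DDIT4 (5.71%, against 17.8%). FARSA, at background with BMP4, is among the 11. For FARSB (0.16, adjusted p = 0.605) and NUPR1 (-0.10, adjusted p = 0.809), which passed with FGF2 and not with BMP4, the difference between the factors did not pass. The call of ATF4 was lost without FGF2 replicate 1, FGF2 replicate 2 or BMP4 replicate 1, that of DDIT4 without any 1 of the FGF2 and BMP4 arrays, and the number of members called was then between 0 and 1.

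Other genes of the same machinery were read from lists of known members. Of 3 scaffold proteins of the multisynthetase complex, EEF1E1 rose with FGF2 (log2 fold change 1.39, standard error 0.24, adjusted p = 0.0265), with 9.19 and 9.72 on the -GFs arrays and 10.86 and 10.83 on the FGF2 arrays. The other scaffold genes passed with the replicate block in opposite directions, AIMP2 (JTV1 on the array) with 0.63 and AIMP1 (SCYE1 on the array) with -0.43. The mitochondrial synthetases charge the tRNAs of the organelle and belong to no cytosolic complex. Of 13 tested, none passed the test with FGF2 (against 6.03% of all genes up and 5.78% down). At these shares a list of 13 can hold no call without differing from all genes. Their median log2 fold change was -0.207. With the block 1 of the 13 rose (against 18.1% of all genes) and 4 fell (against 19.6%). The gene that rose is MARS2, which was detected on 1 -GFs array, 2 FGF2 arrays and 1 BMP4 array. It thus entered the test through the FGF2 group, in which it is bright.

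Of 7 tested subunits of the initiation factor eIF2 and of its exchange factor eIF2B, the eIF2B subunit EIF2B3 rose (log2 fold change 0.69, standard error 0.17, adjusted p = 0.0662), and the median was 0.388. None of the tested eIF2 subunits passed without the block. With the replicate block 5 of the 7 rose (against 18.1% of all genes) and none fell (against 19.6%). Of 5 tested eIF2 kinases and phosphatase subunits, none passed in either fit, with a median of 0.211. Without the block 6.03% of all genes rose and 5.78% fell, so that a list of 5 can hold no call without differing from them. The kinases EIF2AK3 (PERK) and EIF2AK4 (GCN2) were detected on no array. Of 9 tested further ATF4 target genes, EIF4EBP1, a repressor of cap-dependent translation, rose (0.56, standard error 0.16, adjusted p = 0.0923), and with the block 2 rose and 2 fell, near the shares of all genes (18.1% and 19.6%). The median of these 9 was -0.098.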

How the data were processed

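The values deposited by the authors are intensities averaged over beads and not log-transformed, with no normalization between arrays, and a detection p-value for each probe and array. The study's methods name BeadStudio and GenomeStudio 2011.01 for processing and limma for the test. The table also holds 9 columns without a heading and 6 leftover lines, which were not used.

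From the intensities, a cubic spline normalization (452 quantiles mapped onto their mean over 6 arrays) was re-implemented in R 4.3.3, followed by log2. limma 3.58.1 (lmFit, eBayes) was fitted on 3 groups with 3 residual degrees of freedom, and every adjusted p is limma's after Benjamini-Hochberg adjustment over all 11872 genes, over the 16111 retained probes where that is said, or over the genes left where another detection filter is named. On simulated data with 200 changed genes (log2 change 1.5) it recovered 198 and made 21 false calls. The log2 fold changes of the synthetases with FGF2 were smaller (-0.458 to 0.665). Recovery of genes with values of that size was not tested. According to the labels, each biological replicate had a well for each of the 3 treatments. The deviations of equally numbered arrays from the mean of their group correlated over genes, at 0.602 (-GFs and FGF2), 0.741 (-GFs and BMP4) and 0.579 (both factors). Adding the replicate number to the fit as a block leaves 2 residual degrees of freedom.

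Every member is named, and from each other gene list the genes that pass with FGF2. The members and lists were chosen with earlier results of these data known. Alternatives were quantile normalization, neqc (offset 16), median scaling, other detection filters, the mean of a gene's probes, the replicate block, a t-test and leaving out each array. RefSeq GRCm38.p6 gave gene names and promoter windows.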

Additional observations from a re-analysis of the deposited data

How the results depend on the processing

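The members called up with FGF2 (4) numbered 16 with the replicate block, 8 with neqc and the block, 1 with neqc, 2 with median scaling, 0 with a t-test after Benjamini-Hochberg adjustment, and 0 to 2 with 1 array left out, when calls over all genes also fell (from 716 up and 686 down to 70 and 33 without FGF2 replicate 2 and to 121 and 58 without FGF2 replicate 1). Those called down (3) numbered 5 with the block, 0 with the t-test and 1 to 3 with 1 array left out. Those past the methods' threshold (3) numbered 0 with the t-test, 1 to 2 with 1 array left out, 2 with median scaling (without ATF4), with neqc or with no filter (without CHAC1), and 4 with neqc and the block (YARS added). In FGF2 against BMP4 (2 called) the number was 13 with the block, 9 with neqc and the block and 0 with the t-test. Over all genes the block also raised the calls of this comparison, from 4.84% up and 4.22% down to 16.3% and 17.8%. The number of members was 3 with median scaling or a detection p under 0.01 (CHAC1 added). It was also 3 with no filter or the mean of the probes (NARS added). For FGF2 against BMP4 in settings other than the block, no share of all genes is set beside these counts. The same holds for the counts past the methods' threshold under other settings. Those counts cannot be compared with a background. With 1 array left out, its group has 1 array, which is assumed to vary like the others. The t-test called 0 of all genes up and 0 down with FGF2, so its 0 is no result about the members. Of the members 8 had an unadjusted p under 0.05 in the t-test, with FARSA, at background in -GFs medium, among them. No share of all genes is set beside these 8, so they cannot be compared with a background. The synthetase median (0.364) was 0.409 with neqc, with or without the block, 0.29 with median scaling or the mean of the probes, and 0.318 to 0.364 with 1 array left out. The cause of these shifts was not tested.

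Of 522 single-gene values under other settings, 448 kept direction and side of the threshold, 34 lost a call, 21 gained one and 19 changed sign, all uncalled. Median scaling gave 2 of the latter, KARS (-0.095) and ALDH18A1 (-0.059). The others came with 1 array left out, over which the log2 fold change ranged from -0.012 to 0.287 for LARS, -0.241 to 0.025 for MARS, -0.133 to 0.145 for KARS, -0.004 to 0.732 for DARS, -0.337 to 0.023 for VARS, -0.625 to 0.009 for PHGDH, -0.053 to 0.337 for SHMT2, -0.231 to 0.296 for ALDH18A1, -0.171 to 0.143 for PYCR1, -0.25 to 0.122 for CEBPG and -0.061 to 0.257 for SESN2. For FGF2 or BMP4 against -GFs, the block changed the calls given beside the results and no other call of a member. For FGF2 against BMP4 it also added ASNS, EPRS, IARS, MTHFD2, TRIB3 and YARS, which are among the 11 higher with FGF2. Signal over background limits CARS, PSPH and ATF3, which were not detected, and FARSA and YARS.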

Other observations

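Genes of the endoplasmic reticulum were read beside the stress genes, since unfolded proteins there are 1 of the signals that lead to ATF4. Of 10 tested genes on this list, 2 rose with FGF2, XBP1 and HSPA5 (against 6.03% of all genes), and none fell (against 5.78%). XBP1, a transcription factor of the unfolded protein response, rose and had levels of 12.64 and 13.25 on the -GFs arrays and 13.94 and 14.16 on the FGF2 arrays (log2 fold change 1.103, standard error 0.24, adjusted p = 0.0482). The chaperone HSPA5 was detected on neither -GFs array and was at least 1.4-fold brighter with FGF2, and it entered the test through the arrays on which it is bright. The median of the 10 was -0.083. With the replicate block 3 rose, HSPA5 among them (against 18.1% of all genes), and 1 fell (against 19.6%).

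Of the 7 tested amino acid transporters none passed (against 6.03% of all genes up and 5.78% down). Their median log2 fold change was -0.268, and with the block 2 fell (against 19.6% of all genes). Of 4 other one-carbon enzymes none passed (median 0.066, and 1 rose with the block, against 18.1% of all genes).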
